A study of Mus musculus with 12 samples.

Results

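Of 55291 gene symbols in the count table, 57 were at 3 CPM or more in all 3 libraries of CD8+ T cells kept in rat tail collagen and under 0.5 CPM in each of the 9 other libraries. CPM is a gene's read count per 1000000 counts of its library. A total of 67 genes met these limits, and 10 were left out by name, namely 8 with names of predicted or clone type, Slc6a12 and Npr1. The genes were chosen by their CPM in all 12 libraries, so for these 57 every difference between rat tail collagen and another group is a description of that choice. Tests between these groups bear on genes outside the 57.

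The study sequenced bulk RNA in 12 libraries, 3 in each of 4 groups, made from CD8+ T cells that were isolated out of the spleen and lymph nodes (LNs) of male WT (wild-type) mice. The rat tail collagen group held activated cells that spent their last 24 hours, up to day 4, in a gel of rat collagen at 2 mg/mL (RatCol in the labels). The bovine collagen group spent the same 24 hours in a gel of bovine collagen at 2 mg/mL (Nutragen in the labels). The media group was kept in liquid medium for that time, also to day 4. All 3 day 4 groups had been stimulated for 2 days with anti-CD3 on the plate and CD28 in solution, and then expanded with interleukin 2. The naive group was lysed at day 0 with no activation and no culture, so it differs from the rest in both. The labels give no age for the mice and do not say whether a replicate number marks the same mouse, so p-values measure the spread between these libraries, which may be technical. In bulk RNA, fewer cells that express a gene and less RNA per cell cannot be told apart.

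Most genes that define nerve, muscle, cartilage, kidney or red cell lineages are kept silent in T cells, and activation by itself opens mainly genes of division, metabolism and effector function. Collagen gels hold cells in a fibrous matrix that they can touch and crawl through. A separate programme, driven in many tissues by the transcription factor NFAT5, raises transporters and enzymes of small organic solutes when the salt around a cell is high.

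Library totals ran from 28483064 counts (bovine collagen 2) to 53138362 counts (media 1). Ribosomal RNA took 11.2%, 5.22% and 13.4% of the counts in rat tail collagen 1 to 3, 6.57%, 12% and 5.65% in bovine collagen, 4.60% to 4.86% in media and 4.03% to 5.79% in naive cells. The labelled cell type had its markers in every group, with 6 of 6 CD8 T cell genes present and a summed level of 1960 to 2283 CPM in rat tail collagen, 2188 to 2659 CPM in bovine collagen, 2508 to 2716 CPM in media and 3261 to 3754 CPM in naive cells. Of the 6, Cd2, Cd3d and Cd3g were lower in every rat tail collagen library than in every media library. Their means were 105, 186 and 283 CPM in rat tail collagen and 274, 266 and 428 CPM in media. B cell genes summed to 7.98 to 10.1 CPM in rat tail collagen, 10.7 to 14.6 CPM in bovine collagen, 12.8 to 15.1 CPM in media and 17.4 to 22 CPM in naive cells. Endothelial genes summed to 66.2 to 83 CPM in rat tail collagen, against 110.2 to 141 CPM in bovine collagen, 130.0 to 149.9 CPM in media and 139.7 to 166 CPM in naive cells. Nearly all of that sum was Pecam1, at 71.9, 82.2 and 65.6 CPM in rat tail collagen 1 to 3, while Tek was higher in every rat tail collagen library (0.183, 0.132 and 0.281 CPM) than in every media library (0.0941, 0.0238 and 0 CPM).

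All 57 genes are protein coding in the GENCODE M21 annotation of GRCm38 and lie on 19 chromosomes. The same limits, turned to each of the other groups with the same filter on names, gave 0 genes for bovine collagen, 0 for media and 14 for naive cells. Summed over the 57 genes, the level was 796, 692 and 581 CPM in rat tail collagen 1 to 3, against 9.07, 7.58 and 6.62 CPM in bovine collagen, 7.68, 8.02 and 6.89 CPM in media and 6.58, 5.94 and 5.64 CPM in naive cells. Every one of the 57 had counts in each rat tail collagen library. Outside it, 43, 43 and 44 genes had at least 1 count in bovine collagen 1 to 3, 48, 46 and 48 in media and 45, 44 and 46 in naive cells. No gene was at 0 in all 9 of those libraries: Tnn and Prrg3 had the fewest counts there, 2 each, and Sh3gl3 the most, 114. Accsl and Prrg3 had no count in the 3 bovine collagen libraries, Tnn none in media, and Tnfrsf11b and Fsd1 none in naive cells.

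**Figure D1:**
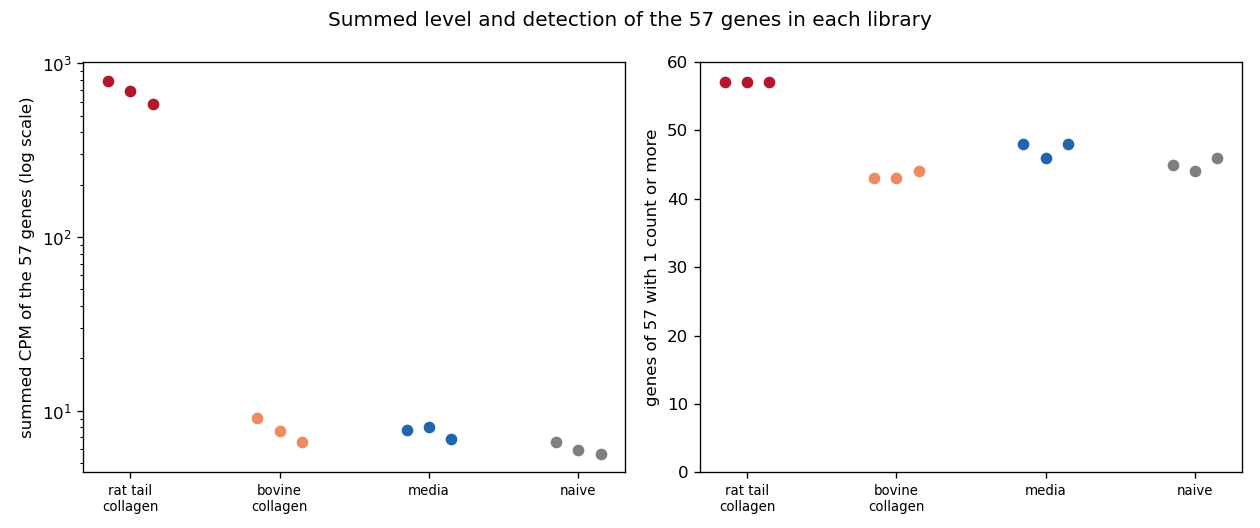
Summed level of the 57 genes in each of the 12 libraries (CPM, log axis) and the number of the 57 with at least 1 count in that library. The rat tail collagen libraries sit at 581 to 796 CPM and the 9 others at 5.64 to 9.07 CPM, while the number of genes with a count is 57 in rat tail collagen and 43 to 48 elsewhere.

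**Figure D2:**
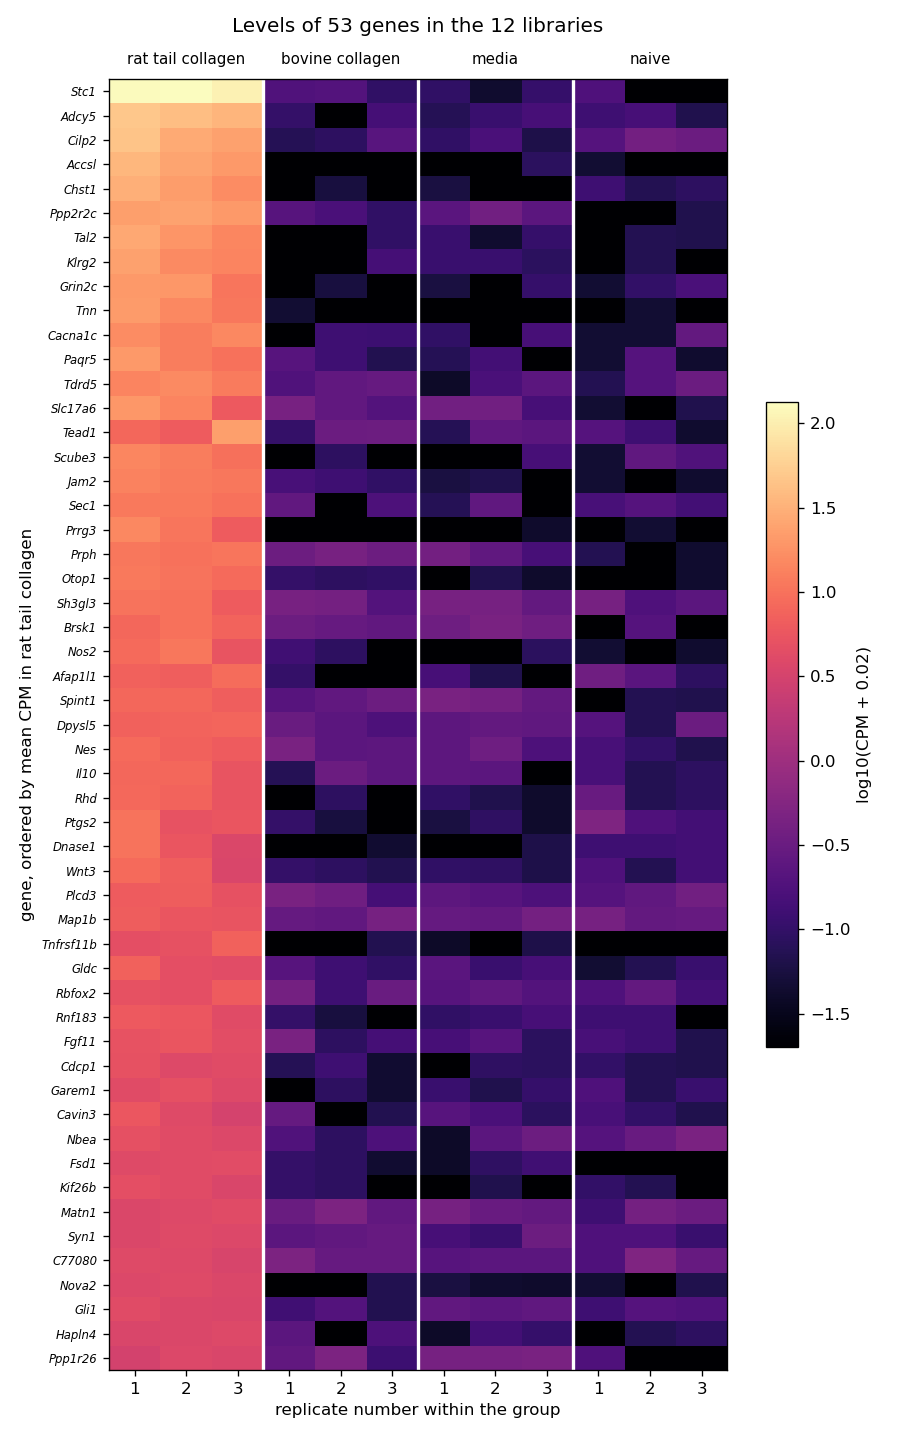
Level of 53 of the 57 genes (rows) in each of the 12 libraries (columns), on a log10 scale of CPM + 0.02. The 3 rat tail collagen columns are bright in every row, and the other 9 columns hold scattered low values without a gene that is high in a second group.

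The genes were of modest level. Their mean in rat tail collagen had a median of 7.51 CPM, 22 reached 10 CPM, 7 reached 20 CPM and 1 reached 100 CPM. The smallest rat tail collagen value stood 6.63-fold (Ppp1r26) to 616-fold (Stc1) over the largest value in the 9 others, with a median of 23.8-fold, and 53 of 57 genes had a gap of 10-fold or more. Per kilobase of annotated exon, mean levels in rat tail collagen ran from 0.135 CPM per kb for Nbea to 29.3 for Stc1. Accsl (9.64), Chst1 (8.57), Cilp2 (7.49) and Tal2 (6.78) followed Stc1 on that scale.

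Promoter windows, 250 bases before to 50 after a gene's start, were found in the RefSeq table of GRCm38.p6 for 41 of the 57 genes, with 52 windows in all. Letters of 7 motifs were searched on both strands. The TonE element, bound by NFAT5, was matched in 3 members (Accsl, Rnf183 and Sec1), 5.77% of member windows, against 3.84% of windows of all tested genes and 4.96% of all windows. The CArG box of serum response factor was matched in Tal2 alone, 1.92% of windows, against 1.26% of those of tested genes. These 4 windows are shown since they hold the matches, with the matched letters in capitals. The Accsl, Rnf183 and Sec1 windows, all on the minus strand, are at chr2:93864767-93865066, chr4:62435201-62435500 and chr7:45694353-45694652, and the Tal2 window is on the plus strand at chr4:53779451-53779750. Accsl and Rnf183 also have other windows, which hold no TonE match. The Accsl window shown lies inside the annotated gene (93855361 to 93869157). The window at its annotated start, chr2:93869108-93869407, has no TonE match. In Accsl and Rnf183 the element is on the strand opposite to the gene, so the capitals are its reverse complement. In Tal2 the CArG letters overlap a TATA box (TATAAA), and the CArG pattern is symmetric, so it matches on both strands.
Accsl: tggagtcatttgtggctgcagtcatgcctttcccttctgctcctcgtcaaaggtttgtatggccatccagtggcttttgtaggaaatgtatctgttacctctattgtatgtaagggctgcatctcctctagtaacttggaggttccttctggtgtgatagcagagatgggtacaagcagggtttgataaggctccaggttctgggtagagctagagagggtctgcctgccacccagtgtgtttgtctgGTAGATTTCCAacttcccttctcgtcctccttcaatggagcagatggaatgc
Rnf183: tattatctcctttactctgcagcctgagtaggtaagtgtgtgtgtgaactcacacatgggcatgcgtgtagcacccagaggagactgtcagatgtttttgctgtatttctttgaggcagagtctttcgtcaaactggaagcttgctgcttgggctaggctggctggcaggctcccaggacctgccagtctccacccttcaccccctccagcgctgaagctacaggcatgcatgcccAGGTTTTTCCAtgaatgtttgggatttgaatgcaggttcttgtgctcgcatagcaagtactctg
Sec1: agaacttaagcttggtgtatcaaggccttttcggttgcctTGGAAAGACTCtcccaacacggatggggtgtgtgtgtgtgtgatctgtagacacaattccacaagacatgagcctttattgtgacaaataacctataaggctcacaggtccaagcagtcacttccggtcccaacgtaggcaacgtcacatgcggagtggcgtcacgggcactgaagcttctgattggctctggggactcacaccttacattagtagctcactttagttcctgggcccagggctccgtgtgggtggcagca
Tal2: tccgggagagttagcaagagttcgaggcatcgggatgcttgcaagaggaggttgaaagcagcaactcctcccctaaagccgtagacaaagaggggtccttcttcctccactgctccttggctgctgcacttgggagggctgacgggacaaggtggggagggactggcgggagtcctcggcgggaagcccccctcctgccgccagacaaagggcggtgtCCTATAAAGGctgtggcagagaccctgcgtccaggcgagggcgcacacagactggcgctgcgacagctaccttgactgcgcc

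The shares of the other motifs among member windows were 11.5% for the TATA box (TATAAA), 63.5% for the GC box (GGGCGG), 5.77% for AP-1 (TGANTCA), 1.92% for CRE (TGACGTCA) and 0% for the heat shock element. In windows of tested genes they were 7.48%, 59.7%, 5.23%, 2.99% and 0.467%, and in all windows 13.6%, 35.7%, 7.81%, 1.79% and 0.603%. Median GC content was 61.3% in member windows, 60.3% in windows of tested genes and 52.7% in all. The median ratio of observed to expected CpG was 0.565 in member windows, 0.730 in those of tested genes and 0.384 in all. A match says only that the letters are in the window, and a missing match says nothing about the factor.

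Among the 12 genes for secreted or extracellular proteins, Stc1 was the highest of all 57, in CPM and per kilobase of exon. It encodes stanniocalcin, a secreted glycoprotein hormone linked to calcium and phosphate handling, and lies on chromosome 14 at 69029238 to 69041804. Stc1 had 126, 134 and 108 CPM in rat tail collagen, against 0.163, 0.176 and 0.0755 CPM in bovine collagen, 0.0753, 0.0238 and 0.0873 CPM in media and 0.16, 0 and 0 CPM in naive cells. All 3 rat tail collagen libraries were far above the other 9 and close to one another, and 2 naive libraries had no count. Its mean was 123 ± 13.3 CPM in rat tail collagen (SD, n = 3), and Stc1 alone took 18.1% of all counts of the 57 genes there.

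Cilp2, a cartilage intermediate layer protein, had 44.6, 28.5 and 23.9 CPM in rat tail collagen, against 0.0545, 0.0702 and 0.201 CPM in bovine collagen, 0.0753, 0.143 and 0.0436 CPM in media and 0.186, 0.366 and 0.307 CPM in naive cells. Every naive library was above every media library for Cilp2, at levels that came from few counts. Tnn, tenascin N (also called tenascin W), a matrix glycoprotein of bone and tumour stroma, had 21.1, 15.3 and 11 CPM in rat tail collagen, against 0.0272, 0 and 0 CPM in bovine collagen, 0, 0 and 0 CPM in media and 0, 0.0262 and 0 CPM in naive cells. Tnn was close to absent outside rat tail collagen, with 1 count in bovine collagen 1 and 1 in naive 2. Scube3, a secreted and cell surface protein with CUB and EGF-like domains, had 14.5, 12.3 and 9.66 CPM in rat tail collagen, against 0, 0.0702 and 0 CPM in bovine collagen, 0, 0 and 0.131 CPM in media and 0.0266, 0.235 and 0.165 CPM in naive cells. For Scube3 as for Cilp2 and Tnn, library 1 was the highest of the rat tail collagen libraries and library 3 the lowest.

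The other extracellular genes described here averaged under 10 CPM in rat tail collagen. Spint1, an inhibitor of trypsin-like serine proteases on epithelial cells, had 6.88 to 8.16 CPM over the rat tail collagen libraries and at most 0.433 CPM elsewhere. Il10, a cytokine that restrains inflammation and is made by some T cells, had 5.28 to 8.20 CPM in rat tail collagen and at most 0.316 CPM elsewhere. Both are regulators rather than structural matrix. Dnase1, a secreted nuclease, had 3.68 to 10.2 CPM and at most 0.118 CPM elsewhere. Wnt3, a ligand of Frizzled receptors, had 3.48 to 8.53 CPM and at most 0.16 CPM elsewhere. Tnfrsf11b, osteoprotegerin, a decoy receptor for the bone cytokine RANKL, had 4.71 to 7.19 CPM and at most 0.0504 CPM elsewhere. Of these, Tnfrsf11b had only 5 counts in the 9 other libraries. Matn1, cartilage matrilin, had 3.64 to 4.24 CPM and at most 0.456 CPM elsewhere. Hapln4, a link protein that joins hyaluronan and proteoglycans, mainly around neurons, had 3.52 to 3.99 CPM and at most 0.218 CPM elsewhere. The 7 genes of the stromal marker list summed to 5.53 to 6.70 CPM in rat tail collagen, 1.14 to 1.33 CPM in bovine collagen, 0.742 to 0.979 CPM in media and 1.70 to 2.48 CPM in naive cells. Most of that sum was Col1a1, at 4.98, 4.32 and 4.07 CPM in rat tail collagen 1 to 3. Col1a2, Col3a1 and Dcn averaged 0.128, 0.0063 and 0.0102 CPM in rat tail collagen, under their 0.302, 0.200 and 0.156 CPM in naive cells. Lum was at 0 in rat tail collagen, and 3 of the 7 (Col1a1, Pdgfra and Pdgfrb) were higher in every rat tail collagen library than in every media library. Their part in the result was not tested.

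Enzymes and their regulators made up 12 genes. Adcy5, an adenylyl cyclase that makes cyclic AMP, had 48.4, 41.2 and 35 CPM in rat tail collagen, against 0.0817, 0 and 0.126 CPM in bovine collagen, 0.0565, 0.0952 and 0.131 CPM in media and 0.107, 0.131 and 0.0472 CPM in naive cells. Accsl, a relative of the plant enzyme that makes the ethylene precursor, had 35.4, 25.3 and 20.3 CPM in rat tail collagen, against 0, 0 and 0 CPM in bovine collagen, 0, 0 and 0.0654 CPM in media and 0.0266, 0 and 0 CPM in naive cells. For both genes all rat tail collagen libraries were above all others, and Accsl had 4 counts in all outside rat tail collagen. Chst1, which adds sulfate to keratan and related glycans, had 30.9, 21.8 and 16.2 CPM in rat tail collagen, against 0, 0.0351 and 0 CPM in bovine collagen, 0.0376, 0 and 0 CPM in media and 0.107, 0.0523 and 0.0708 CPM in naive cells. Every naive library lay above every media library for Chst1, with 12 counts in all over the 9 libraries. Accsl and Chst1 are both on chromosome 2.

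Ppp2r2c, a regulatory subunit of protein phosphatase 2A best known in brain, had 22.7, 24.1 and 20.3 CPM in rat tail collagen, against 0.191, 0.14 and 0.0755 CPM in bovine collagen, 0.207, 0.357 and 0.218 CPM in media and 0, 0 and 0.0472 CPM in naive cells. It was close between the rat tail collagen libraries, and the other day 4 libraries did not overlap with the naive ones. Sec1, a fucosyltransferase gene next to Fut2, had 11.3, 11.4 and 10.1 CPM in rat tail collagen, against 0.245, 0 and 0.151 CPM in bovine collagen, 0.0565, 0.238 and 0 CPM in media and 0.133, 0.183 and 0.118 CPM in naive cells. Sec1 was also even across the rat tail collagen libraries. Nos2, inducible nitric oxide synthase, had 5.31 to 10.9 CPM in rat tail collagen and at most 0.109 CPM elsewhere. Ptgs2, the inducible cyclooxygenase of prostaglandin synthesis, had 5.17 to 10.5 CPM and at most 0.479 CPM elsewhere. Both are enzymes known from activated macrophages, and the myeloid list of 6 genes summed to 19.8 to 24.3 CPM in rat tail collagen, 8.95 to 10.1 CPM in bovine collagen, 8.98 to 10.1 CPM in media and 33.7 to 127 CPM in naive cells. No myeloid marker was at 0 in all 3 rat tail collagen libraries, and 3 of the 6 (Cd14, Adgre1 and Cd68) were higher in every library there than in every media library. Itgam, 1 of the 6, was lower in every library there, at 1.96, 0.963 and 0.477 CPM against 3.90, 3.10 and 2.03 CPM in media. Most of the sum in rat tail collagen was Cd68, at 17.9, 17.7 and 22.8 CPM in rat tail collagen 1 to 3. The defining genes Csf1r and Lyz2 were close to 0 there, with 0, 0.0378 and 0 CPM of Csf1r and 0, 0 and 0.0281 CPM of Lyz2 in rat tail collagen 1 to 3. The part of such cells was not tested. Gldc, of the glycine cleavage system of mitochondria, had 4.35 to 7.37 CPM and at most 0.207 CPM elsewhere. Plcd3, a phospholipase C, had 4.97 to 6.67 CPM and at most 0.436 CPM elsewhere. Rnf183, a membrane ubiquitin ligase known in mouse kidney as a target of NFAT5, had 4.27 to 6.15 CPM and at most 0.131 CPM elsewhere. Kinase and phosphatase regulators closed the group. Brsk1, a neuronal kinase, had 7.49 to 9.92 CPM and at most 0.429 CPM elsewhere, and Ppp1r26, a regulatory subunit of protein phosphatase 1, had 3.03 to 3.83 CPM and at most 0.456 CPM elsewhere.

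**Figure D3:**
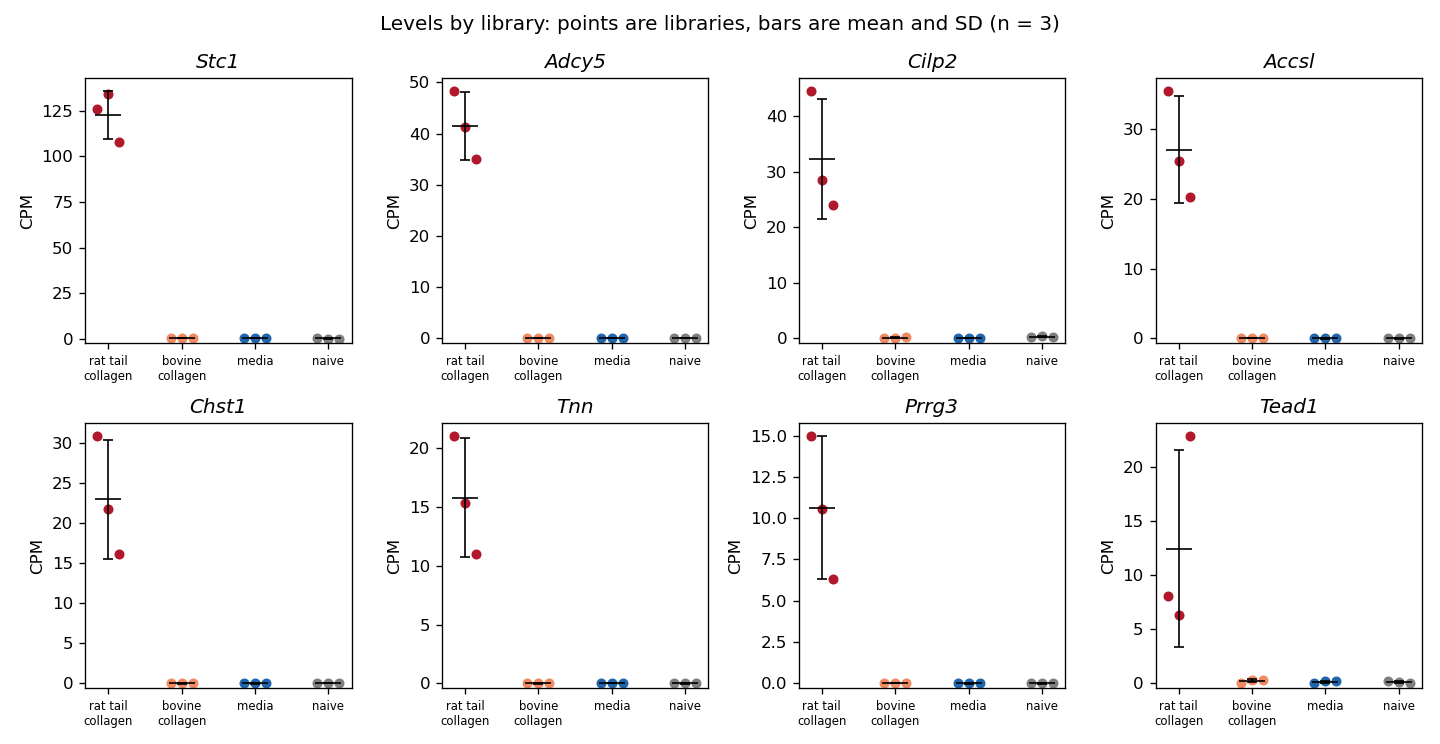
Level of 8 of the genes (CPM) in each library by group, with points for libraries and a bar and whiskers for the mean and SD of 3. In all 8 panels the rat tail collagen points lie apart from the rest, Stc1 between 108 and 134 CPM, and for Tead1 rat tail collagen 3 stands at 22.9 CPM, above 6.35 and 8.10 CPM in the other rat tail collagen libraries.

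Channels, transporters and other membrane proteins were 12 genes. Klrg2, a lectin-like relative of the T and NK cell receptor KLRG1, had 23.2, 15.8 and 13.9 CPM in rat tail collagen, against 0, 0 and 0.126 CPM in bovine collagen, 0.0941, 0.0952 and 0.0654 CPM in media and 0, 0.0523 and 0 CPM in naive cells. Grin2c, a subunit of the NMDA glutamate receptor, had 20.4, 19.9 and 10.6 CPM in rat tail collagen, against 0, 0.0351 and 0 CPM in bovine collagen, 0.0376, 0 and 0.0873 CPM in media and 0.0266, 0.0785 and 0.142 CPM in naive cells. In both, library 3 was the lowest of the rat tail collagen libraries and still far above the other groups. Cacna1c, the pore of the L-type calcium channel of heart and brain, had 15.9, 12.3 and 15.1 CPM in rat tail collagen, against 0, 0.105 and 0.101 CPM in bovine collagen, 0.0753, 0 and 0.131 CPM in media and 0.0266, 0.0262 and 0.26 CPM in naive cells. Paqr5, a membrane progesterone receptor, had 20.9, 12.2 and 9.88 CPM in rat tail collagen, against 0.191, 0.105 and 0.0504 CPM in bovine collagen, 0.0565, 0.119 and 0 CPM in media and 0.0266, 0.183 and 0.0236 CPM in naive cells. The spread between rat tail collagen libraries was small for Cacna1c (14.4 ± 1.92 CPM, SD, n = 3) and wide for Paqr5 (14.3 ± 5.79 CPM).

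Slc17a6, the vesicular glutamate transporter of neurons, had 19.9, 14.3 and 6.06 CPM in rat tail collagen, against 0.409, 0.246 and 0.176 CPM in bovine collagen, 0.358, 0.357 and 0.131 CPM in media and 0.0266, 0 and 0.0472 CPM in naive cells. Its library 3 was well under libraries 1 and 2, and both other day 4 groups were above the naive one. Jam2, an adhesion molecule of endothelial and epithelial junctions, had 13.5, 11.7 and 11.1 CPM in rat tail collagen, against 0.136, 0.105 and 0.0755 CPM in bovine collagen, 0.0376, 0.0476 and 0 CPM in media and 0.0266, 0 and 0.0236 CPM in naive cells. Prrg3, a membrane protein with a domain for vitamin K dependent carboxylation, had 15, 10.5 and 6.34 CPM in rat tail collagen, against 0, 0 and 0 CPM in bovine collagen, 0, 0 and 0.0218 CPM in media and 0, 0.0262 and 0 CPM in naive cells. Jam2 was even across the rat tail collagen libraries, while Prrg3 was high in library 1 and low in library 3. Otop1, a proton channel of sour taste cells, had 11.3, 10.2 and 8.70 CPM in rat tail collagen, against 0.0817, 0.0702 and 0.0755 CPM in bovine collagen, 0, 0.0476 and 0.0218 CPM in media and 0, 0 and 0.0236 CPM in naive cells. It too was far above the other groups in each rat tail collagen library.

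Rhd and Cdcp1 averaged under 10 CPM in rat tail collagen. Rhd, the Rh blood group protein of red cells, had 5.39 to 8.41 CPM over the rat tail collagen libraries and at most 0.293 CPM elsewhere. The sum of 5 red cell markers was higher in rat tail collagen than in bovine collagen and media, but not than in naive cells. It was 1.5 to 2.64 CPM in rat tail collagen, 0.151 to 0.245 CPM in bovine collagen, 0.0654 to 0.301 CPM in media and 1.44 to 12.2 CPM in naive cells. Alas2, the haem synthesis enzyme of red cells, was 0.978, 1.10 and 2.36 CPM in rat tail collagen 1 to 3, and Alas2, Hba-a1 and Hba-a2, 3 of the 5, were higher in every rat tail collagen library than in every media library. Hbb-bs was at 0.0306, 0.0755 and 0 CPM in rat tail collagen 1 to 3, and none of the 5 was at 0 in all 3 of these libraries. Their part was not tested. Cdcp1, a glycoprotein of epithelial and some blood stem cells, had 3.93 to 5.01 CPM and at most 0.105 CPM elsewhere. Epithelial markers were higher beside it: 5 genes summed to 15 to 18.5 CPM in rat tail collagen, 2.32 to 4.03 CPM in bovine collagen, 2.36 to 3.37 CPM in media and 1.73 to 2.34 CPM in naive cells. Epcam was 12.8, 13.5 and 17 CPM of that sum in rat tail collagen 1 to 3, Krt14 was at 0 there, and 2 of the 5 (Epcam and Krt5) were higher in every rat tail collagen library than in every media library. Their part in the result was not tested.

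Genes of the cytoskeleton and of vesicles were 12, many of them known from neurons. Prph, the peripherin filament of peripheral neurons, had 11.2, 10.01 and 10.5 CPM in rat tail collagen, against 0.327, 0.421 and 0.327 CPM in bovine collagen, 0.376, 0.238 and 0.131 CPM in media and 0.0533, 0 and 0.0236 CPM in naive cells. Prph varied little between the rat tail collagen libraries, and every naive library was under every media library.

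The other 10 genes of this group averaged under 10 CPM in rat tail collagen. Sh3gl3, an endophilin of membrane uptake, had 6.43 to 10.4 CPM in rat tail collagen and at most 0.414 CPM elsewhere. Afap1l1, which binds actin, had 6.84 to 9.09 CPM and at most 0.346 CPM elsewhere. Dpysl5, of the collapsin response family of axon growth, had 7.22 to 7.83 CPM and at most 0.307 CPM elsewhere. All 3 were at least 10-fold apart from their largest value elsewhere. Nes, nestin, a filament of neural progenitors, had 6.26 to 8.65 CPM and at most 0.436 CPM elsewhere. Map1b, which binds microtubules in growing axons, had 5.31 to 6.60 CPM and at most 0.403 CPM elsewhere. Syn1, a synaptic vesicle protein, had 3.67 to 4.08 CPM and at most 0.327 CPM elsewhere. The neural marker list ran the other way, its 5 genes summing to 2.08 to 2.98 CPM in rat tail collagen, 4.46 to 7.33 CPM in bovine collagen, 4.91 to 7.42 CPM in media and 4.05 to 4.96 CPM in naive cells. Of that list, Snap25 and Syt1 were at 0 in bovine collagen and media and at most 0.183 CPM in rat tail collagen, and the part of neural cells was not tested. Nbea, which acts in vesicle traffic of neurons, had 3.73 to 4.80 CPM and at most 0.448 CPM elsewhere. Fsd1, a microtubule-associated protein, had 4.07 to 4.29 CPM and at most 0.109 CPM elsewhere. Kif26b, of the kinesin family, had 3.59 to 4.71 CPM and at most 0.0817 CPM elsewhere. Cavin3, a coat protein of caveolae, had 3.17 to 5.72 CPM and at most 0.272 CPM elsewhere. Of these, Fsd1 was the steadiest of all 57 genes between the rat tail collagen libraries, with a coefficient of variation of 2.96%.

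Genes of transcription and RNA were 6. Tal2, a helix-loop-helix factor first found at a chromosome break of T cell leukaemia, had 26.6, 19.4 and 14.4 CPM in rat tail collagen, against 0, 0 and 0.0755 CPM in bovine collagen, 0.0941, 0.0238 and 0.0873 CPM in media and 0, 0.0523 and 0.0472 CPM in naive cells. Tdrd5, a Tudor domain protein of male germ cells, had 14.3, 15.5 and 11.7 CPM in rat tail collagen, against 0.163, 0.246 and 0.277 CPM in bovine collagen, 0.0188, 0.143 and 0.218 CPM in media and 0.0533, 0.183 and 0.307 CPM in naive cells. Tal2 differed more between the rat tail collagen libraries than Tdrd5, and neither overlapped with the other groups. Tead1, a partner of the YAP and TAZ coactivators of the Hippo pathway, had 8.10, 6.35 and 22.9 CPM in rat tail collagen, against 0.0817, 0.316 and 0.327 CPM in bovine collagen, 0.0565, 0.238 and 0.218 CPM in media and 0.186, 0.105 and 0.0236 CPM in naive cells. Its rat tail collagen 3 library stood far over the other 2, and the coefficient of variation, 73.1%, was the highest of the 57 genes. Foxp3, the regulator of regulatory T cells, was also highest there, at 3.67, 4.51 and 19.1 CPM in rat tail collagen, 0.518, 0.772 and 4.36 CPM in bovine collagen, 0.489, 0.905 and 4.32 CPM in media and 4.42, 2.41 and 2.55 CPM in naive cells, and its part in the Tead1 value was not tested. The CD4 T cell list of 3 genes that holds Foxp3 summed to 66.9 to 69.6 CPM in rat tail collagen, 28.7 to 35.2 CPM in bovine collagen, 25.6 to 37.1 CPM in media and 10.3 to 22.9 CPM in naive cells. Most of the sum in rat tail collagen was Zbtb7b, at 60.5, 59.8 and 48.4 CPM. Zbtb7b was the 1 of the 3 that was higher in every rat tail collagen library than in every media library. Cd4 itself was 2.75, 2.63 and 2.13 CPM in rat tail collagen and 3.80, 2.83 and 2.05 CPM in media. The part of CD4 T cells was not tested. NK cell genes, 3 in number and led by Eomes, summed to 35.7 to 65.7 CPM in rat tail collagen, 62.9 to 70.9 CPM in bovine collagen, 72.3 to 79.2 CPM in media and 98.9 to 123 CPM in naive cells. Of these, Klrb1c was higher in every rat tail collagen library than in every media library, at 10.2, 9.12 and 7.92 CPM in rat tail collagen, 0.708, 0.421 and 0.101 CPM in bovine collagen, 0.47, 0.333 and 0.175 CPM in media and 11, 5.31 and 6.04 CPM in naive cells. Eomes was lower in every rat tail collagen library (55.4, 52.8 and 27.8 CPM) than in every media library (72.3, 71.9 and 79.0 CPM). Ncr1 was 0.153, 0.0567 and 0 CPM in rat tail collagen, 0.0753, 0 and 0.0218 CPM in media and 12.1, 5.34 and 6.21 CPM in naive cells. The part of NK cells was not tested. Gli1, an effector of Hedgehog signalling, had 3.54 to 4.25 CPM in rat tail collagen and at most 0.245 CPM elsewhere. Nova2, a neuronal splicing regulator, had 3.62 to 4.12 CPM and at most 0.0504 CPM elsewhere. Rbfox2, a splicing regulator of many tissues, had 4.74 to 6.46 CPM and at most 0.381 CPM elsewhere. The last 3 genes of the 57 belong to none of these groups: Fgf11, an intracellular FGF relative, had 4.58 to 5.59 CPM and at most 0.436 CPM elsewhere. Garem1, an adaptor of growth factor receptors, had 3.87 to 4.87 CPM and at most 0.16 CPM elsewhere. C77080, with no role given here, had 3.42 to 4.13 CPM and at most 0.497 CPM elsewhere.

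Near the limits, the lowest rat tail collagen values inside were 3.03 CPM for Ppp1r26, 3.17 for Cavin3 and 3.42 for C77080, and high values elsewhere near the other limit were 0.497 CPM for C77080 and 0.479 for Ptgs2. Just outside were Duox2, Srgap1 and Jph4, whose lowest rat tail collagen values were 2.92, 2.91 and 2.89 CPM. Xkr6, Dzank1 and Chd5 missed the other limit, with 0.506, 0.519 and 0.545 CPM as their highest value elsewhere. Tenm4, a teneurin of cell contacts, was put forward as a marker of the set and is not one of the 57. Tenm4 had 37.4, 39.8 and 29.4 CPM in rat tail collagen, against 0.109, 0.0702 and 0 CPM in bovine collagen, 0.0941, 0 and 0.0654 CPM in media and 0.799, 0.105 and 0.0944 CPM in naive cells. Its naive 1 library alone was over the upper limit.

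The 3 rat tail collagen libraries were not equal for these genes. With CPM by column totals, 33 of the 57 genes were highest in library 1, 15 in library 2 and 9 in library 3, and 42 (73.7%) were lowest in library 3. Of 12085 other genes at 3 CPM or more in rat tail collagen, 11.4% were highest in library 1, 77.7% in library 2 and 10.9% in library 3, and 58.5% were lowest in library 3. With TMM factors, which correct for a few very large features such as ribosomal RNA, 41 genes (71.9%) were highest in library 1, against 30.2% of the others, and 37 (64.9%) were lowest in library 3, against 42.7% of the others. The coefficient of variation over the 3 libraries had a median of 16.1% for the 57 genes and 9.47% for the others, with no match for level between them, and 34 of the 57 were under 20%. Library 3 over the mean of libraries 1 and 2 was 0.355 for Slc17a6, 0.455 for Wnt3 and 0.470 for Dnase1. It was 3.17 for Tead1, 1.49 for Tnfrsf11b, 1.33 for Rbfox2 and 1.29 for Afap1l1. The 57 genes did not move as 1 block between these libraries. Whether the libraries' ribosomal RNA shares, 11.2%, 5.22% and 13.4%, bear on this was not tested.

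**Figure D4:**
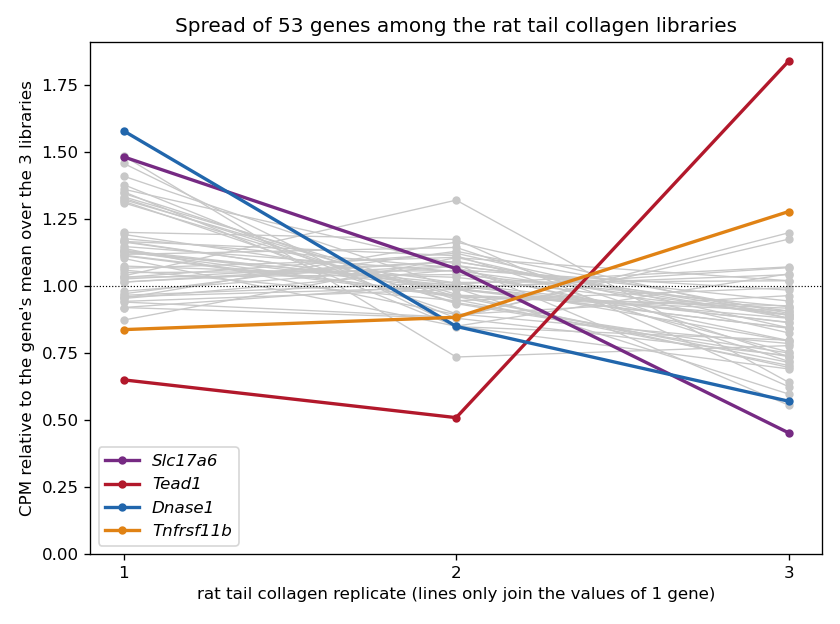
Level of 53 of the 57 genes in rat tail collagen 1, 2 and 3, divided by the gene's mean over the 3 libraries, with a line joining the values of 1 gene and 4 genes named. Most lines are low in library 3, Slc17a6 and Dnase1 among them, while Tead1 and Tnfrsf11b are high there.

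Against bovine collagen and media the groups were separated for all 57 genes by construction. In edgeR's quasi-likelihood fit of the 9 day 4 libraries, with Benjamini-Hochberg adjustment over 19392 genes, all 57 were called as higher in rat tail collagen in the comparison with media, where 58.4% of all genes were called and 29.7% were called higher. All 57 were also called higher in rat tail collagen than in bovine collagen, where 54.7% of all genes were called and 28.4% were called higher. All 57 passed the filter on low counts, but only through rat tail collagen, so these counts and the median fitted log2 differences of 6.46 against media and 6.15 against bovine collagen describe the choice of genes. Both comparisons share the rat tail collagen libraries.

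Bovine collagen against media is the day 4 comparison in which the limits fixed no direction, but they kept every one of the 57 genes under 0.5 CPM in both groups. Of the 57 genes 0 were called by edgeR's quasi-likelihood test (5 at an unadjusted p under 0.05) and 0 by DESeq2 (3 at an unadjusted p under 0.05). Over all genes, 810 of 19392 (4.18%) were at an unadjusted p under 0.05 in edgeR's test. Genes kept this low had little room for a call, so nothing is read from these counts. Over all genes, 0.0206% (4 of 19392) were called by edgeR, 22 genes by DESeq2, and 7 by edgeR with the replicate number as a block. Jam2, Otop1 and C77080 were higher in every bovine collagen library than in every media library, and Ppp2r2c, Brsk1 and Gli1 were lower in every one. These orders rest on few counts: all 57 genes together had 812 counts in bovine collagen, 1061 in media and 713 in naive cells. The share of all genes ordered in this way was not counted, so these orders are not read as differences between the groups. In media, Cilp2, Chst1, Ptgs2 and Dnase1 were lower in every library than in every naive library. Another 12 genes were higher in every media library than in every naive one, among them Ppp2r2c, Klrg2, Slc17a6, Prph, Brsk1, Spint1, Nes, Gldc, Fsd1, Gli1 and Ppp1r26. For media and naive cells, too, the share of all genes so ordered was not counted, and no trait of the 57 is read from it.

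Relatives of the highest genes were tested in the same fit, with wider lists of solute and tonicity genes and of secreted matrix genes. The 6 lists were written with earlier results of these data known, and all their genes are called relatives here. Of 68 relatives with a row of counts, 41 passed the filter. Rat tail collagen was above media in 29 of these and below it in 6 (edgeR adjusted p under 0.05). The median log2 difference of the 41 was 1.34, beside -0.01 for all genes, of which 29.7% were called higher. Of the 29, the solute and tonicity list gave 10 and the secreted matrix list 12. Those lists are not families of single members, so the pooled values do not describe the families, which moved in both directions. Stc2, the other stanniocalcin, fell: it was 1.47, 1.47 and 1.32 CPM in rat tail collagen, 5.34, 4.42 and 2.82 CPM in bovine collagen, 6.25, 5.07 and 4.21 CPM in media and 2.53, 2.67 and 2.57 CPM in naive cells, a log2 difference of -1.92 to media (edgeR adjusted p = 5.36e-05). All 3 rat tail collagen libraries were under all day 4 others, the opposite of Stc1. Among 6 other tenascins and teneurins none passed the filter. Tnc, Tnr, Tnxb, Tenm1, Tenm2 and Tenm3 averaged at most 0.354 CPM in rat tail collagen.

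The sulfotransferases had 9 tested members beside Chst1, of which 4 were higher, 3 lower and 2 not called. Chst10 fell, at 11, 13.6 and 10.7 CPM in rat tail collagen and 30.9, 29.5 and 27.5 CPM in media (log2 difference -1.37, edgeR adjusted p = 1.23e-07). Ust fell as well, at 6.15, 8.25 and 11.1 CPM in rat tail collagen and 30.7, 34.1 and 37.5 CPM in media (log2 difference -2.05, edgeR adjusted p = 3.33e-06). Chst12, which sulfates chondroitin and dermatan, rose, at 79.4, 96.2 and 97.3 CPM in rat tail collagen and 34.8, 30.6 and 30.1 CPM in media (log2 difference 1.46, edgeR adjusted p = 2.61e-07). The list moved in both directions, with a median log2 difference of 0.06. Of 4 tested relatives of Accsl and Prrg3, Accs (log2 difference 0.68), Prrg2 (1.71) and Prrg4 (0.66) rose and Prrg1 (-1.37) fell.

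Solute and tonicity genes had 12 tested members, of which 10 were higher, 0 lower and 2 not called, with a median log2 difference of 2.34. Slc5a3, the inositol transporter, was 489, 445 and 331 CPM in rat tail collagen, 22.9, 17.5 and 20.02 CPM in bovine collagen, 15.8, 21.3 and 19.3 CPM in media and 24.6, 24.1 and 19.7 CPM in naive cells (log2 difference 4.44 to media, edgeR adjusted p = 3.06e-09). The heat shock genes Hspa1a and Hspa1b had log2 differences of 6.90 and 6.63, but they are near-identical copies whose reads may be split, so each is uncertain. Hspa1a was 67.2, 51.9 and 50.8 CPM in rat tail collagen, 0.79, 0.527 and 0.73 CPM in bovine collagen, 0.395, 0.50 and 0.48 CPM in media and 565, 1196 and 1257 CPM in naive cells, so the naive libraries were the highest of all. Nfat5 itself, which is named here after its values were seen, was at 662, 667 and 586 CPM in rat tail collagen and 62, 88.7 and 82.5 CPM in media (log2 difference 2.99, edgeR adjusted p = 9.09e-09). Whether NFAT5 acts on any of the 57 genes was not tested. Secreted matrix genes outside the 57 had 15 tested members, 12 higher, 1 lower and 2 not called, with a median log2 difference of 2.36. Vcan, the large proteoglycan versican, was 40.9, 39.4 and 40.4 CPM in rat tail collagen, 0.736, 0.562 and 0.327 CPM in bovine collagen and 0.376, 0.595 and 0.502 CPM in media (log2 difference 6.32, edgeR adjusted p = 1.96e-09). It missed the limits by its levels outside rat tail collagen. Spp1, osteopontin, had a log2 difference of 5.35 (edgeR adjusted p = 2.84e-07), and Col1a1, a chain of type I collagen, one of 3.76 (edgeR adjusted p = 7.76e-08).

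**Figure D5:**
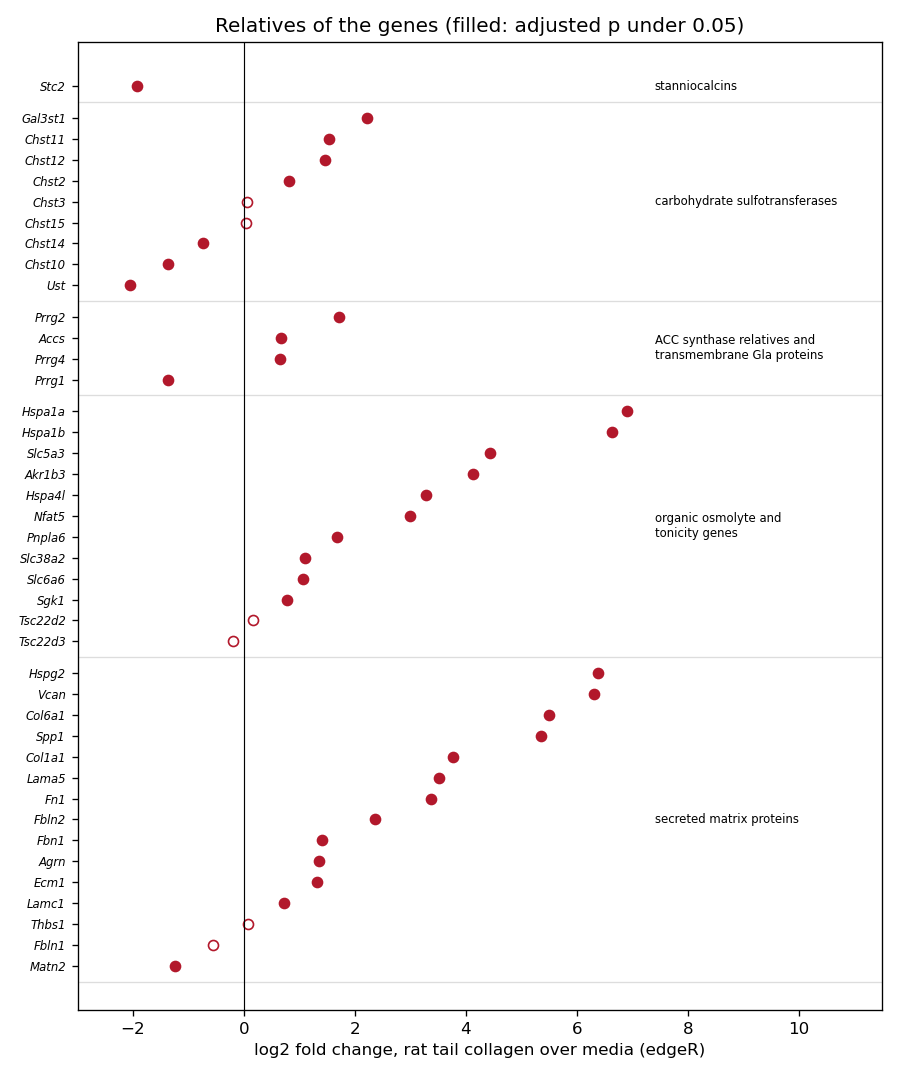
Log2 difference of rat tail collagen over media for each tested relative, by list, with filled points for an adjusted p under 0.05 in edgeR's quasi-likelihood fit. The tonicity and matrix lists lie mostly to the higher side (10 of 12 and 12 of 15 called higher), and the sulfotransferases on both sides.

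Gene families of the 57 members were set side by side by level, with families chosen after the values were seen. In 12 of the 20 families checked only members reached a mean of 3 CPM in rat tail collagen and no gene did in media, for example Grin2c among 7 NMDA receptor subunits, Cacna1c among 4 L-type calcium channels and Nos2 among 3 nitric oxide synthases. In other families a second gene that the limits left out was also high in rat tail collagen and low in media. Tead3 averaged 8.44 CPM in rat tail collagen and 0.36 CPM in media, Cavin1 10.8 CPM and 0.101 CPM, and F11r, a relative of Jam2, 7.79 CPM and 0.457 CPM. Slc17a7 averaged 6.94 CPM in rat tail collagen and 1.60 CPM in media. Adenylyl cyclases were different, since Adcy3, Adcy6 and Adcy7 reached 3 CPM in media as well.

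The genes are spread over the genome, with 7 each on chromosomes 1 and 7 as the largest number. Only 3 pairs lie within 1 Mb of each other. Of these pairs, Cilp2 and Hapln4 are 195770 bp apart, and Wnt3 and Plcd3 are 672492 bp apart. The nearest gene upstream and downstream of each member, 113 in all with members left out, had 68 tested. Of these, 32 (47.1%) were higher in rat tail collagen and 13 lower, both against media, beside 29.7% of all genes higher. On the member's own strand, 63 nearest genes were tested, 23 (36.5%) were higher and 18 lower. These shares stand beside that of all genes with no test.

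Some members have another gene within 10 kb upstream on the same strand. Fdxr, which ends 781 bp before Grin2c, was 41.5, 50.2 and 42.2 CPM in rat tail collagen and 23.2, 20.1 and 19.9 CPM in media (log2 difference 1.03, edgeR adjusted p = 2.97e-06). Yjefn3, 101 bp before Cilp2, had a log2 difference of 1.03 (edgeR adjusted p = 0.00383) at 1.65, 1.57 and 1.21 CPM in rat tail collagen. Tmem102, 1746 bp before Fgf11, had 4.38 (edgeR adjusted p = 4.92e-05) at about 1 CPM in rat tail collagen. Tmem128, 6338 bp before Otop1, and Laptm5, 8244 bp before Matn1, were not called (log2 differences 0.17 and -0.12), nor were Cfp, Shd and Tm6sf2 before Syn1, Fsd1 and Hapln4 (0.14, 0.42 and 0.21). Transcripts that run from these genes into a member were not tested.

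Of the 57 genes, 29 overlap another annotated gene, 25 of them on the opposite strand, and 28 overlap none. The strand setting of the counting is not given in the sources used here, so reads from both strands of an overlap cannot be told apart. In 9 cases an overlapping gene averaged 1 CPM or more in rat tail collagen. Ntn5, on the other strand of Sec1, was 3.06, 2.83 and 1.88 CPM in rat tail collagen, 0, 0 and 0 CPM in bovine collagen, 0, 0.0238 and 0 CPM in media and 0.186, 0.262 and 0.0472 CPM in naive cells. Like Sec1, it was higher in every rat tail collagen library than in every other library, and both are uncertain. Trap1 and Araf, which overlap Dnase1 and Syn1 by few bases, averaged 95.3 and 85.1 CPM in rat tail collagen, against 98.0 and 70.2 CPM in media.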

How the data were processed

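The values are raw counts per gene as deposited by the authors in 1 table of 55291 symbols and 12 libraries, and its whole numbers were used without change. HISAT2, featureCounts, SAMtools, Picard, FastQC and MultiQC, with GRCm38 (mm10), are listed in the submitters' processing notes. Their versions, the strand setting and the gene annotation used for counting were not given in the sources used here. Per the labels, each library was made from 150 ng after rRNA depletion. Levels are CPM by column total. Counts were fitted with edgeR 4.0.16 in R 4.3.3 (filterByExpr, TMM, robust quasi-likelihood F test) on the 9 day 4 libraries, 19392 genes, with Benjamini-Hochberg adjustment over all of them and a call at an adjusted p under 0.05; the common biological coefficient of variation was 12.2%. The fit was tested on simulated counts. DESeq2 1.42.0 was an alternative, as were other size factors, no filter, the 6 libraries of a comparison alone, a replicate block and leaving out each library. Gene positions and lengths come from GENCODE M21, promoters from RefSeq GRCm38.p6.

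The members, gene lists, families and role groups were chosen with earlier results of these data known. Values in every library are given for the markers and the members of highest mean, up to 25, and other members by their range. Relatives are named by the smallest adjusted p, up to 3 a list, and upstream neighbours within 10 kb. Values of 4 members and of some neighbouring genes are not reported here, while counts, sums and medians cover all 57 members. Genes outside this rule were chosen after their values were seen.

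Replicate numbers come from the sample labels. Over the 5000 genes of highest level, same-numbered libraries deviated together between bovine collagen and media (correlations 0.269 to 0.794) and between rat tail collagen and media (0.103 to 0.135), every pair over 0.1, but not between rat tail and bovine collagen (-0.343 to 0.019). Differently numbered libraries gave -0.831 to 0.052 for bovine collagen and media, and -0.084 to -0.032 for rat tail collagen and media. Between rat tail and bovine collagen, differently numbered libraries reached 0.201, above the same-numbered values of rat tail collagen and media. Pairing was therefore read only between bovine collagen and media. The main fit did not pair the libraries, so its p-values take no account of any pairing. A fit with the replicate number as a block was run only as an alternative.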

Additional observations from a re-analysis of the deposited data

How the results depend on the processing

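The number of genes that meet the limits depends on them: 57 became 95 at 2 CPM in rat tail collagen, 35 at 5 CPM, 28 with under 0.25 CPM elsewhere and 128 with under 1 CPM, and it was 56 with TMM or RLE factors (55 of the 57 shared in each). Leaving out each library gave 57 to 71 genes. In analyses chosen after seeing the data, leaving out the 3 libraries of highest ribosomal RNA share gave 81 genes, all 57 among them, and removing ribosomal RNA genes from the totals gave 60 (51 of the 57 shared). Of 285 levels of single members under other settings, 283 stayed within 1 SD and 2, both of Fsd1, did not. Bovine collagen against media had 4 calls, 39 with no filter, 22 with DESeq2, 7 with the replicate block, 2 with only the 6 libraries and 2 to 5 when each library was left out. The replicate block gave 12070 calls for rat tail collagen against media and 11402 against bovine collagen, beside 11319 and 10617 without it, and moved no other count of calls by over 1.5 times. Leaving out each library gave 9986 to 11137 and 9346 to 10091. Relatives had 35 calls (35 to 37) and neighbours 45 (41 to 45). Of 704 results for named genes outside the members, 697 kept their side of the threshold, 7 (Tsc22d2, Tsc22d3 and Tmem128) passed it only in the alternative and 0 reversed. Outside rat tail collagen the 57 genes together had 812 counts in bovine collagen, 1061 in media and 713 in naive cells, and what size of difference these counts could show was not measured.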

Other observations

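The 8 genes that met the limits and were left out for their names had the same pattern at modest levels. Gm43800 had 18.9, 18.7 and 18.2 CPM in rat tail collagen, against 0.0545, 0.14 and 0.151 CPM in bovine collagen, 0.151, 0.0476 and 0.175 CPM in media and 0, 0.0523 and 0 CPM in naive cells. It was more even across the rat tail collagen libraries than most of the 57. The clone-named 4933423P22Rik had 10.8, 7.97 and 5.47 CPM in rat tail collagen and at most 0.175 CPM elsewhere, and like most of the 57 it was lowest in library 3. The 14 genes that the same limits gave for naive cells include Lyz2, Csf1r, Mpeg1 and Cybb of myeloid cells, Cd22 and H2-Aa of antigen-presenting cells, and Ncr1 and Klra8 of NK cells.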
